A study of Neurospora crassa with 2 samples.

Results

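The transcripts described here encode the core loop of the Neurospora crassa circadian clock and the enzymes that modify its central protein, FREQUENCY (FRQ). The genes were taken by symbol from the deposited table: frq and frh (negative arm), wc-1 and wc-2 (positive arm), cka, ckb-1 and prd-4 (kinase genes), rgb-1 (phosphatase) and fwd-1 (ubiquitin ligase). All 9 were present, out of 10559 genes in the table. RNA came from hyphae of the WT strain, which carries the bd mutation. Cultures grown in glucose medium were kept in the dark for 20 hr (DD20) or 12 hr (DD12), and no gene was deleted or induced at either time. PolyA RNA was sequenced from pools of independent samples. The table holds 1 column per time point, and the sources used here do not say whether a column is 1 RNA pool or combined duplicates. The difference between DD20 and DD12 therefore has no replicate check, and no p-value was computed.

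In this clock, WC-1 and WC-2 form the White Collar Complex, which activates frq transcription. FRQ, bound to the RNA helicase FRH, in turn inhibits the complex, and WC-1 is also the blue-light receptor of the fungus. Kinases phosphorylate FRQ progressively, phosphatases counteract them, and the F-box protein FWD-1 recruits phosphorylated FRQ to a ubiquitin ligase for degradation. The RNA of frq is known to cycle over the day in constant darkness.

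Values are RPKM, the reads on a gene scaled by the length of the gene model and the depth of the library, so they can be compared between genes. They measure a gene's share of the RNA of whole cultures, in which fewer cells expressing a gene and less RNA per cell cannot be told apart. No marker list for hyphae was used to check the labelled material. The steps between low RPKM values gave library totals of 29960356 reads at DD20 and 30712952 at DD12, and with these totals the reads behind each gene were recovered. Intervals are 95% exact counting intervals on reads divided by 2, to allow for both mates of a pair being counted. Of genes with 1 to 10 reads, 60.4% of 144 at DD20 and 65.4% of 130 at DD12 had an even number. These shares do not settle whether both mates were counted, and undivided reads would give narrower intervals. The intervals cover counting error only and leave out all variation between cultures and RNA pools. A log2 ratio is that of DD20 over DD12 with 1 RPKM added to both values, and its interval was computed without the added 1. Folds given for single genes are also ratios of RPKM without the added 1, while the 2-fold calls use the log2 ratio. The genes tested are the 7414 whose RPKM averaged at least 1 over the columns, and all 9 clock genes were among them. The median log2 ratio of the genes tested was 0.15, and 66.2% of them were higher at DD20, so each ratio is also given relative to this median. Of the RPKM summed over the table, 15.2% at DD20 and 22.9% at DD12 lay on the 10 genes with the highest values, and their part in the shift was not tested.

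Of the clock genes, 7 were higher at DD20 and 2 were lower, where 66.2% of all genes tested were higher, and none differed by 2-fold. Relative to the median of all genes, 6 were higher and 3 lower. The same counts came with columns rescaled to the same sum or without the 10 most abundant genes. The gene furthest above its DD12 level was frh, 1.78-fold higher at DD20, and the one furthest below was prd-4, 1.90-fold lower at DD20. The level of wc-1 was nearly the same in both columns. Among all genes tested, 0.742% were 2-fold or more higher at DD20 and 2.33% were 2-fold or more lower, so 0 of 9 in either direction is close to what the table as a whole gave. The counting interval lay above 0 for 6 clock genes (frq, frh, cka, ckb-1, rgb-1 and fwd-1), against 41.2% of the 7267 genes tested with an interval. It lay below 0 for 2 (wc-2 and prd-4), against 17.2%. Intervals narrow as reads increase, and the median level of the clock genes was 17.9 RPKM at DD20 and 20.0 RPKM at DD12. Over all genes tested the median level was 12.2 RPKM at DD20 and 11.1 RPKM at DD12. The effect of this on the interval counts was not tested. The median log2 ratio of the 9 genes was 0.25, and their median absolute log2 ratio was 0.29, against 0.28 over all genes tested. Without the added 1, as the intervals are computed, the median log2 ratio of the genes with an interval was 0.17. The interval lay above this median for 3 clock genes (frh, cka and fwd-1, against 25.4% of all genes). It lay below the median for 2 (wc-2 and prd-4, against 26.4% of all genes) and across it for the other 4. For fwd-1 the call was marginal, with a lower end of 0.170 against a median of 0.167.

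**Figure D1:**
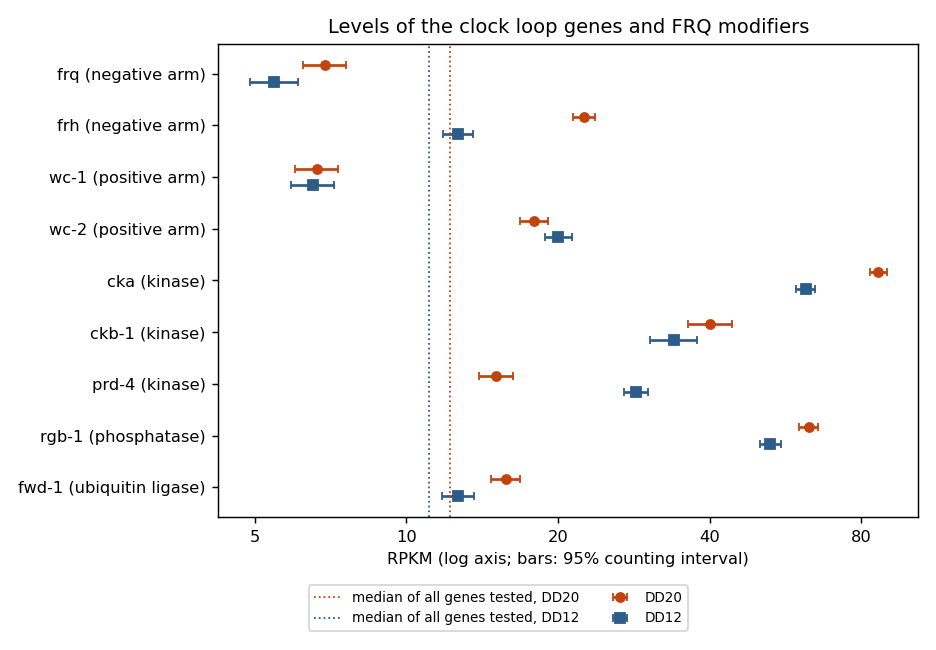
RPKM (log axis) of the 9 clock genes at DD20 (circles) and DD12 (squares), with 95% counting intervals as bars and dotted lines at the median of all genes tested. The level of cka was 86.4 RPKM at DD20 and 61.9 RPKM at DD12, the highest of the 9 in both columns, and frq and wc-1 lay below the median of all genes in both columns.

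The negative arm consists of frq and frh. The level of frq was 6.89 RPKM at DD20, from 823 reads, and 5.47 RPKM at DD12, from 669 reads. It was thus 1.26-fold higher at DD20, with a log2 ratio of 0.29 (interval 0.12 to 0.55) and one of 0.14 relative to the median of all genes. Of the genes tested, 33.0% had a higher ratio than frq. An antisense transcript, qrf, is made from the frq locus and was not matched in the table. As strand handling is not given in the sources used here, reads of frq and of qrf cannot be told apart in these values. The value is also a single number per gene and does not separate the spliced forms of frq that give the large and small FRQ proteins.

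FRH is the helicase that binds FRQ, and its homologue in budding yeast, Mtr4, feeds RNA to the nuclear exosome. The level of frh was 22.5 RPKM at DD20, from 2884 reads, and 12.7 RPKM at DD12, from 1662 reads. The intervals of the columns were 21.4 to 23.7 RPKM at DD20 and 11.8 to 13.6 RPKM at DD12, and did not overlap. The log2 ratio was 0.78 (interval 0.71 to 0.96), and 0.63 relative to the median of all genes. Only 209 of the 7414 genes tested (2.82%) had a higher ratio than frh. The level of frh was above that of 69.1% of the genes tested at DD20 and of 55.0% at DD12.

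**Figure D2:**
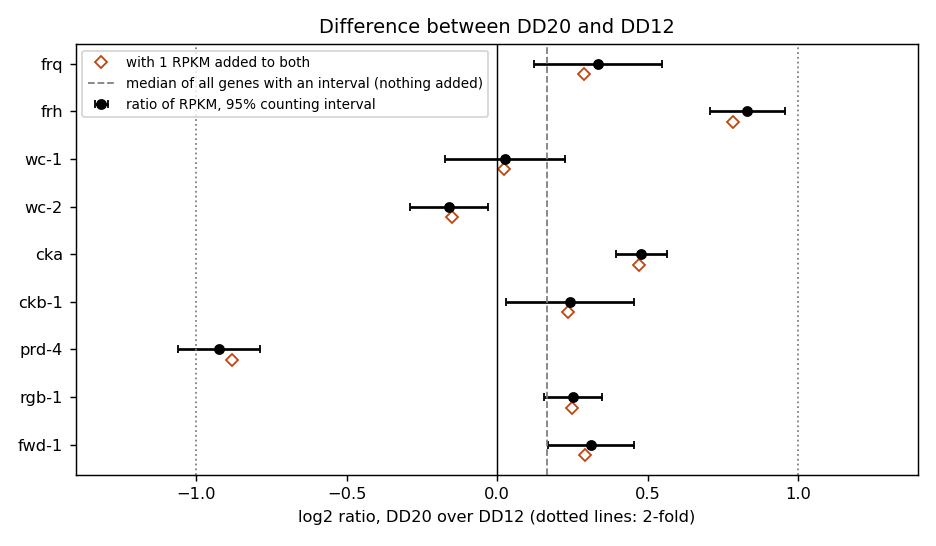
Log2 ratio of DD20 over DD12 for the 9 clock genes, as the ratio of RPKM with its 95% counting interval (filled circles) and with 1 RPKM added to both values (open diamonds). The dashed line is the median of all genes with an interval, without the added 1 (0.17), and the dotted lines mark 2-fold. The interval of frh lay at 0.71 to 0.96, that of prd-4 at -1.06 to -0.79, and that of wc-1 spanned 0.

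In the positive arm, wc-1 encodes the photoreceptor subunit of the White Collar Complex and wc-2 its partner, both of them GATA-type zinc finger proteins. The level of wc-1 was 6.64 RPKM at DD20, from 824 reads, and 6.52 RPKM at DD12, from 829 reads. Its log2 ratio was 0.023 (interval -0.17 to 0.23), so a difference was not detectable by read counting, and its sign turned negative in 3 of the 5 other settings, with values down to -0.15. The level of wc-2 was 17.9 RPKM at DD20, from 1807 reads, and 20.0 RPKM at DD12, from 2068 reads. Its log2 ratio was -0.15 (interval -0.29 to -0.029), and -0.30 relative to the median of all genes. The value of wc-2 was below 0 in all 5 other settings, from -0.34 to -0.13. The ratio of frh, in contrast, was above 0 in all of these settings, from 0.59 to 0.83.

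Among the kinase genes, cka encodes the catalytic subunit of casein kinase II and ckb-1 a regulatory subunit of it. Alleles of both genes were found as clock mutants, and RefSeq gives prd-3 as a synonym of cka and chr as one of ckb-1. The level of cka was 86.4 RPKM at DD20, from 5290 reads, and 61.9 RPKM at DD12, from 3889 reads. Its log2 ratio was 0.47 (interval 0.39 to 0.56), and 0.32 relative to the median of all genes. With 15.0% of the genes tested above it, cka had the second highest ratio of the 9. The level of ckb-1 was 40.1 RPKM at DD20 and 33.9 RPKM at DD12. For this gene 3 lengths gave whole reads, from 659 nt (792 reads at DD20 and 687 at DD12) to 1977 nt (2376 reads at DD20 and 2061 at DD12). With the fewest reads, which give the widest interval, the log2 ratio of 0.23 had an interval of 0.029 to 0.45. Both subunit genes were thus higher at DD20, by 1.39-fold for cka and 1.18-fold for ckb-1, but relative to the median of all genes ckb-1 was at only 0.085.

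PRD-4 is the checkpoint kinase 2 of Neurospora, which links DNA damage to the clock by phosphorylating FRQ. The level of prd-4 was 15.1 RPKM at DD20, from 1335 reads, and 28.6 RPKM at DD12, from 2595 reads. Its column intervals were 13.9 to 16.2 RPKM at DD20 and 27.0 to 30.2 RPKM at DD12. The log2 ratio was -0.88 (interval -1.06 to -0.79), and 240 of the 7414 genes tested (3.24%) had a lower ratio. It was the single clock gene whose 2-fold call depended on the scaling. Relative to the median of all genes the log2 ratio was -1.03, past 2-fold, where 3.45% of all genes tested were 2-fold or more lower and 0.418% were 2-fold or more higher. It was -1.07 with the columns rescaled without the 10 most abundant genes. The level of prd-4 was above that of 57.4% of the genes tested at DD20 and of 76.4% at DD12.

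**Figure D3:**
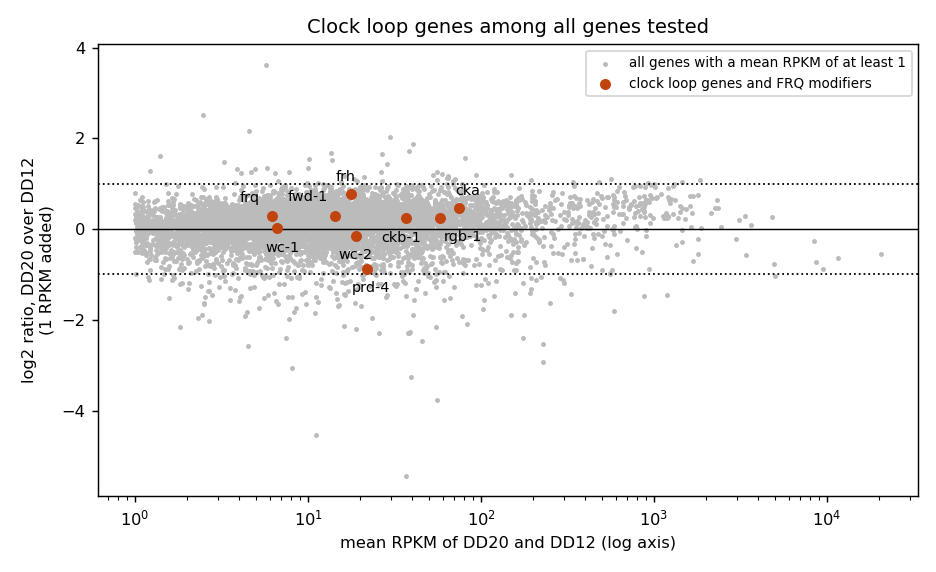
Log2 ratio of DD20 over DD12 (1 RPKM added) against the mean RPKM of the columns (log axis) for the 7414 genes tested (grey) and the 9 clock genes (coloured, named). Dotted lines mark 2-fold. All 9 clock genes lay within 2-fold, with frh (0.78) and prd-4 (-0.88) at the edges and the others between -0.15 and 0.47.

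On the side of the phosphatases, rgb-1 encodes the regulatory B subunit of protein phosphatase 2A, which removes phosphates from FRQ. The level of rgb-1 was 62.8 RPKM at DD20, from 3881 reads, and 52.7 RPKM at DD12, from 3340 reads. Its log2 ratio was 0.25 (interval 0.16 to 0.35), and 0.099 relative to the median of all genes. The ubiquitin ligase gene fwd-1 had 15.8 RPKM at DD20, from 1782 reads, and 12.7 RPKM at DD12, from 1471 reads. Its log2 ratio was 0.29 (interval 0.17 to 0.46), and 0.14 relative to the median of all genes.

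The genes were next compared with each other within a column, where the scaling of the columns cancels. At DD20 the order of levels was cka, rgb-1, ckb-1, frh, wc-2, fwd-1, prd-4, frq and wc-1. At DD12 it was cka, rgb-1, ckb-1, prd-4, wc-2, fwd-1, frh, wc-1 and frq. Thus the casein kinase II and phosphatase 2A subunit genes led in both columns, and frq and wc-1 came last. The neighbours in these orders that did not differ beyond counting error were fwd-1 and prd-4 at DD20, frq and wc-1 at DD20, and frh and fwd-1 at DD12. Among frh, wc-2 and prd-4, the order was frh, wc-2 and prd-4 at DD20 and prd-4, wc-2 and frh at DD12, and each pair of them differed beyond counting error in both columns.

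Within the negative arm, frh was 3.27 times as abundant as frq at DD20 (interval 2.93 to 3.66) and 2.32 times as abundant at DD12 (2.04 to 2.64). These intervals did not overlap. Within the positive arm, wc-2 was 2.70 times as abundant as wc-1 at DD20 (2.40 to 3.04) and 3.07 times at DD12 (2.74 to 3.45), with overlapping intervals. Between the arms, the level of frq over that of wc-1 was 1.04 at DD20 (0.903 to 1.19) and 0.838 at DD12 (0.724 to 0.970), also overlapping. The level of frh over that of wc-2, by contrast, was 1.26 at DD20 (1.16 to 1.37) and 0.633 at DD12 (0.577 to 0.694). The more abundant transcripts of the arms thus stood in opposite order at DD20 and DD12. This is not particular to the arms. Of all 36 pairs of the clock genes, 22 had intervals that did not overlap, 8 of them with frh and 8 with prd-4. The order changed in 6 pairs, 3 of them with frh and 3 with prd-4, where the pair of frh and prd-4 counts under both.

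Among the modifiers, cka was 2.15 times as abundant as ckb-1 at DD20 (1.94 to 2.40) and 1.83 times at DD12 (1.63 to 2.05), with overlapping intervals. The level of cka over that of rgb-1, a kinase gene against a phosphatase gene, was 1.38 at DD20 (1.30 to 1.46) and 1.17 at DD12 (1.10 to 1.25). The level of prd-4 over that of cka was 0.174 at DD20 (0.160 to 0.190) and 0.461 at DD12 (0.429 to 0.495). Against fwd-1, prd-4 was at 0.956 at DD20 (0.863 to 1.06) and 2.25 at DD12 (2.05 to 2.47). The level of fwd-1 over that of frq was 2.29 at DD20 (2.03 to 2.57) and 2.32 at DD12 (2.04 to 2.65), with overlapping intervals. The same held for ckb-1 over rgb-1, at 0.639 at DD20 (0.572 to 0.712) and 0.644 at DD12 (0.571 to 0.723), so this is not particular to fwd-1 and frq.

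**Figure D4:**
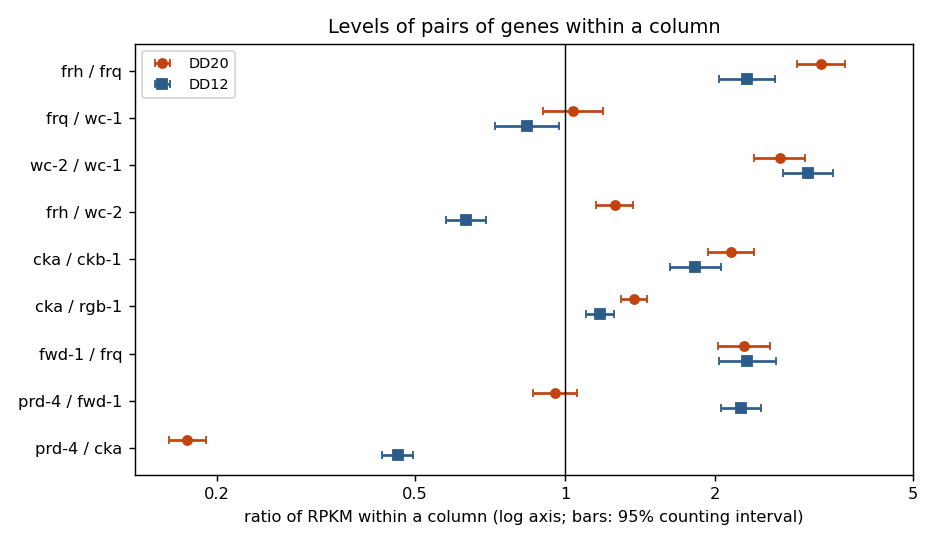
Ratio of RPKM within a column (log axis) for 9 pairs of clock genes at DD20 (circles) and DD12 (squares), with 95% counting intervals. The intervals of prd-4 over fwd-1 did not overlap (0.956 at DD20 and 2.25 at DD12), whereas the intervals of fwd-1 over frq overlapped (2.29 at DD20 and 2.32 at DD12).

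Other genes of the pathway were taken from lists of symbols, chosen like the 9 genes with earlier results of these data known. The 8 further kinase genes tested include genes of regulatory subunits. Of these 8, 6 were higher at DD20 and 2 lower (66.2% of all genes tested were higher), none by 2-fold. Their log2 ratios ranged from -0.37 to 0.61, with a median of 0.15, as over all genes tested. Relative to that median, 4 were higher and 4 lower, and with the columns rescaled without the 10 most abundant genes 3 were higher and 5 lower. The casein kinase I gene ck-1a, whose product phosphorylates FRQ, had 125.7 RPKM at DD20 and 110.1 RPKM at DD12 (log2 ratio 0.19). It was more abundant than any of the 9 clock genes. The gene of the other casein kinase II regulatory subunit, ckb-2, had 50.0 RPKM at DD20 and 43.3 RPKM at DD12 (log2 ratio 0.20), above ckb-1 in both columns. Of the 7 further phosphatase symbols, 3 were matched. With the deposited scaling 66.2% of all genes tested were higher at DD20, and all 3 were higher in every setting run. They were pph-1, the catalytic subunit of phosphatase 2A (71.7 RPKM at DD20 and 58.8 RPKM at DD12), ppp-1, which RefSeq lists as pph-3 (111.5 RPKM at DD20 and 80.8 RPKM at DD12), and pzl-1 (24.3 RPKM at DD20 and 19.4 RPKM at DD12).

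The ubiquitin ligase to which FWD-1 belongs contains a cullin scaffold (cul-1) and the SKP1 adaptor (scon-3), and the COP9 signalosome, encoded by the csn genes, regulates the cullin. The level of cul-1 was 29.2 RPKM at DD20 and 27.0 RPKM at DD12 (log2 ratio 0.11, interval -0.045 to 0.26). The level of scon-3 was 113.1 RPKM at DD20 and 128.3 RPKM at DD12 (log2 ratio -0.18, interval -0.26 to -0.10). Thus fwd-1 was the least abundant of these 3 subunit genes in both columns. The 7 csn genes were at similar levels, from 16.9 to 26.9 RPKM at DD20 and from 15.0 to 23.0 RPKM at DD12. Their log2 ratios ran from 0.0058 (csn-6) to 0.34 (csn-1), with a median of 0.22 and intervals above 0 for 4, against 41.2% of all genes with an interval. With the deposited scaling all 7 were higher at DD20, where 66.2% of all genes tested were higher. Of the csn genes, 6 were higher with the columns rescaled to the same sum and 5 relative to the median of all genes. Without the 10 most abundant genes in the scaling, 4 were higher.

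**Figure D5:**
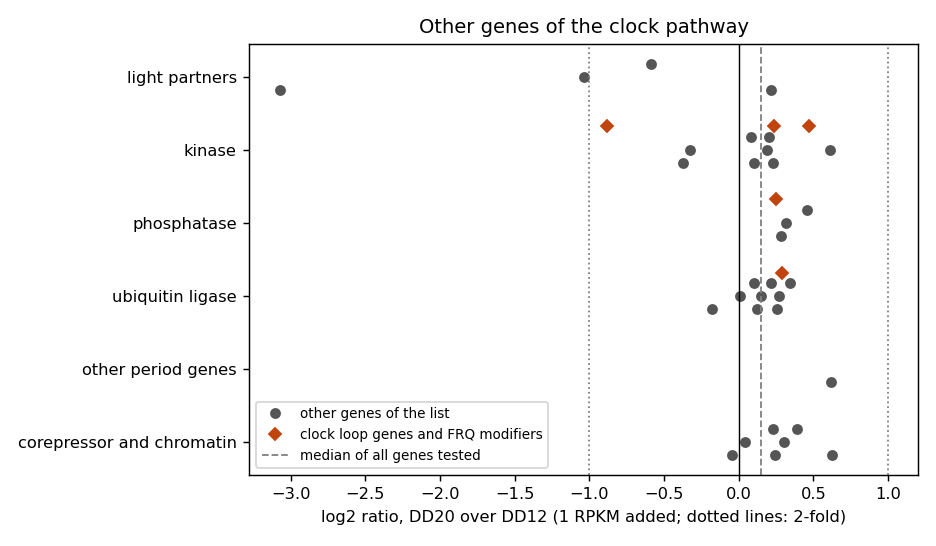
Log2 ratio of DD20 over DD12 (1 RPKM added) for the other genes of the clock pathway by list (circles) and for the clock genes of the same role (diamonds). The dashed line is the median of all genes tested (0.15) and the dotted lines mark 2-fold. The genes past 2-fold were vvd (-3.07) and csp-1 (-1.04), both in the list of light partners.

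Of these lists, only the light partners held genes 2-fold or more lower at DD20, with 2 of the 4 genes tested, against 2.33% of all genes. VVD is a small photoreceptor that dampens the activity of the White Collar Complex in light, and vvd had 0.923 RPKM at DD20, from 87 reads, and 15.2 RPKM at DD12, from 1466 reads (log2 ratio -3.07). CSP-1 is a repressor transcribed under the White Collar Complex that acts on wc-1 among other genes. The level of csp-1 was 42.3 RPKM at DD20 and 87.8 RPKM at DD12 (log2 ratio -1.04), and with a pseudocount of 5 RPKM vvd was the single gene of the list past 2-fold. The other tested genes of the list were sub-1, which encodes a light-induced GATA factor, with 13.9 RPKM at DD20 and 21.4 RPKM at DD12 (log2 ratio -0.59), and bd, the allele of ras-1 carried by the strain, with 61.7 RPKM at DD20 and 52.9 RPKM at DD12 (log2 ratio 0.22). The cryptochrome gene cry, below the minimum level, had 0.302 RPKM at DD20, from 37 reads, and 0.636 RPKM at DD12, from 80 reads. Without the added 1, vvd was 16.4-fold lower at DD20 (log2 ratio -4.04, interval -4.52 to -3.60). Its level at DD20 was below the added 1, so the size of its ratio depends on that value. The genes of the White Collar Complex itself, wc-1 and wc-2, lay within 1.12-fold between the columns. A link between these values was not tested.

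The period gene prd-6, which encodes UPF1 of nonsense-mediated RNA decay, had 20.2 RPKM at DD20 and 12.8 RPKM at DD12 (log2 ratio 0.62). Its levels were near those of frh in both columns. Of the 7 matched corepressor and chromatin genes, 6 were higher at DD20 and 1 lower, with a range of -0.043 to 0.63, where 66.2% of all genes tested were higher. Relative to the median of all genes, 5 of these were higher and 2 lower. None of the 5 symbols for RNA decay partners of FRH was matched.

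The genes most like frq in level were looked for among 1125 genes with a symbol, by the Euclidean distance of log2(RPKM + 1) over the 2 columns. The nearest were stk-45, with 7.13 RPKM at DD20 and 5.35 RPKM at DD12 (distance 0.050), gle-1, with 7.06 RPKM at DD20 and 5.21 RPKM at DD12 (0.066), and nkin-2, with 7.17 RPKM at DD20 and 5.85 RPKM at DD12 (0.097). With 2 columns, this likeness describes the levels and does not show a shared rhythm.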

How the data were processed

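The authors deposited RPKM values per gene for WT at DD20 and DD12, made by scaling the reads on each gene model by its length and the library total. The submitters' processing notes name CASAVA 1.8 and HISAT with no role; the counting tool, its strand setting and the build are not given in the sources used here, so no coordinates are printed. Symbols, synonyms and spans came from RefSeq (assembly NC12), which matched 10526 of the 10559 genes.

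Library totals were taken as the smallest that gave whole reads for genes whose length is their RefSeq span, and the length of each gene as any whole number between 30 nt and its span that gave whole reads in both columns within 0.003 reads. Of 8614 genes tried, 8612 had such a length and 6617 a unique one. Exact Clopper-Pearson intervals (ratios) and exact Poisson intervals (levels) were computed on reads divided by 2. No count model was fitted and no test was run. The recovery and the ratios were also run on simulated data with known totals, lengths and fold changes. Those reads were drawn mostly in pairs, so that run cannot check the division by 2. Python 3.11.15, pandas 2.3.3, numpy 2.4.6, scipy 1.17.1 and matplotlib 3.10.9 were used.

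Alternatives were pseudocounts of 0.1 and 5 RPKM, columns rescaled to the same sum with or without the 10 most abundant genes, centred ratios, no filter and a minimum mean of 10 RPKM, and reads not divided by length. The text names all 9 clock genes. Of the lists (light partners, kinases, phosphatases, ubiquitin ligase and COP9 signalosome, other period genes, RNA decay partners, corepressor and chromatin genes) it names genes of lists with 5 or fewer matches, genes past 2-fold and partners in a complex. It also names the 3 genes with a symbol nearest to frq. The genes and lists were chosen with earlier results of these data known. No sample column was left out.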

Additional observations from a re-analysis of the deposited data

How the results depend on the processing

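No paired analysis was possible because DD20 and DD12 have a single column each, which also leaves no replicate to omit. With ratios centred on the median of all genes, and with columns rescaled without the 10 most abundant genes, 1 clock gene (prd-4) was 2-fold or more lower at DD20, against 0 otherwise. The log2 ratios under these settings were 0.32 and 0.27 for cka, 0.63 and 0.59 for frh, 0.14 and 0.10 for fwd-1, -1.03 and -1.07 for prd-4, 0.099 and 0.050 for rgb-1, and -0.30 and -0.34 for wc-2. The median of the 9 genes was 0.099 and 0.050, and that of all genes tested was 0 by construction and -0.028. With a pseudocount of 5 RPKM, frh was at 0.64 and prd-4 at -0.74. Of 45 values of the clock genes under the 5 alternatives, 14 were called as moved beyond counting error, and only wc-1 changed sign. This call is not whether a value left its printed interval. Centred prd-4, at -1.03, was called although its interval was -1.06 to -0.79. Genes 2-fold or more higher at DD20 numbered 55, against 27 without the 10 most abundant genes in the scaling, 99 and 29 with pseudocounts of 0.1 and 5 RPKM, and 31 with centred ratios. Genes 2-fold or more lower numbered 173, against 269 without the 10 most abundant genes, 91 with a pseudocount of 5 RPKM and 102 at a mean of at least 10 RPKM, where fewer genes were tested. Centring shifts every ratio by 0.15, and the causes of the other moves were not tested. As reads not divided by length, prd-4 over cka was 0.252 at DD20 and 0.667 at DD12, and wc-2 over wc-1 was 2.19 at DD20 and 2.49 at DD12. This setting gave no value for pairs with ckb-1, whose length is not unique.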

Other observations

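For all 9 clock genes the recovered length was shorter than the RefSeq span, which includes introns. Lengths above the span were not tried, so a longer one could not have been found. For ckb-1, whose length is not unique, the longest that gave whole reads was 1977 nt, against a span of 2046 nt. The recovered length was 3985 nt for frq, against a span of 4825 nt and 3 RefSeq transcripts, and 4139 nt for wc-1, against a span of 6454 nt and 4 transcripts. For frh it was 4273 nt, 68 nt shorter than the span, and for rgb-1 it was 2062 nt, 1557 nt shorter. A level divided by another length would move in proportion, while the ratio of DD20 over DD12 would not.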
